A study of Homo sapiens with 3 samples.

Results

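The 42 genes described here encode the machinery that licenses replication origins, opens the DNA and copies it. They were listed by name and role rather than by a threshold on any value, and all 42 were found among the 22497 genes with a symbol in the count tables. They fall into 8 groups by role: the origin recognition complex, the helicase loaders with geminin, the MCM2-7 helicase, the factors that switch the helicase on, the polymerases with primase, the sliding clamp with its loader, the flap nuclease with the ligase, and the single-strand binding protein RPA. The cells were CAMA-1, a breast cancer line that expresses the estrogen receptor, grown as spheroids. A parental lineage labelled with the Venus fluorescent protein was sensitive to ribociclib, an inhibitor of the kinases CDK4 and CDK6, and a lineage labelled with mCherry had been made resistant by long growth in that drug. Spheroids started at 100% sensitive cells (sensitive monoculture), 50% sensitive cells (coculture) or 0% sensitive cells (resistant monoculture), and the labels give the same treatment for all of them: DMSO with 1 µM ribociclib, harvested after 11 days. No library without ribociclib was analysed here, the resistant lineage is a single line, and the harvested cells were frozen alive before the libraries were made. Each condition was 1 library without a replicate, no test across samples was possible and no p-value is given. All intervals are at 95% and cover counting error only.

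Replication is split into a licensing step and a firing step. From late mitosis through G1, the origin recognition complex, CDC6 and CDT1 place inactive MCM2-7 rings on the DNA, and geminin, the inhibitor of CDT1, stops this once S phase starts. In S phase the kinase made of CDC7 and DBF4, together with CDK activity, joins CDC45 and the GINS complex to MCM2-7, and the forks then carry polymerases alpha, delta and epsilon, the clamp PCNA with its loader RFC, and RPA on the exposed single strands. Many of these genes are targets of the E2F factors, which the retinoblastoma protein holds back until CDK4/6 activity, the target of ribociclib, releases them.

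E2F sites are therefore shown first, since they are the sequence feature the family is best known for. RefSeq promoters (GRCh38.p14), from 250 bases before to 50 bases after each annotated start, were searched on both strands for TTTCCCGC, TTTCGCGC, TTTGCCGC and TTTGGCGC, and 36 of the 42 genes had an entry. At least 1 of these strings stood in the promoters of 19 of the 36 genes (52.8%), against 3.99% of 27305 genes with a promoter and 6.52% of the 9879 with enough UMIs in resistant monoculture. By role it was present in 4 of 4 MCM2-7 genes, in 3 of 3 genes of the loaders and geminin, in 4 of 7 genes of helicase activation, in 4 of 7 of the polymerases and primase, in 2 of 6 of the clamp and clamp loader, in 1 of 2 of the flap nuclease and ligase, in 1 of 6 of the origin recognition complex and in 0 of 1 of RPA. CCAAT was found in 58.3% of the 36 genes, against 39.7% of all and 43.3% of those with enough UMIs. TTTGAA, the core of the CHR element of genes used late in the cycle, was found in 2.78%, against 18.2% and 13.1%. The string in DBF4 was the only TTTGAA among the 36, and MCM10 held none of the E2F strings in this window. A match is a description of letters, not a measured binding site. The sites below belong to the 5 genes with the largest ratio of S over G1 cells in resistant monoculture among those that had a match and were not used to assign the cell cycle phase. Capitals mark the E2F string, and each line gives the strand of the gene.
CDT1, chr16:88803734-88803781, plus strand: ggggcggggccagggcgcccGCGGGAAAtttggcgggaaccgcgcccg
MCM3, chr6:52284719-52284936, minus strand: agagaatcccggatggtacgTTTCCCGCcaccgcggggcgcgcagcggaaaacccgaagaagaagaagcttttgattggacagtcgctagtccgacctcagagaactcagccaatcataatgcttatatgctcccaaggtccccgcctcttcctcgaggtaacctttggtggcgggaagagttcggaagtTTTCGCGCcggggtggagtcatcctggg
POLA2, chr11:65261889-65261936, plus strand: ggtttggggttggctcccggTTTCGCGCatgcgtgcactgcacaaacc
GINS1, chr20:25407658-25407697, plus strand: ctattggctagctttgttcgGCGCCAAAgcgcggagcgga
CDC7, chr1:91501024-91501105, plus strand: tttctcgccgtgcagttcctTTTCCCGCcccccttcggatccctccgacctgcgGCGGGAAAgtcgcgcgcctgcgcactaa
The string began at -35 from the annotated start in CDT1, at -53 in POLA2 and at 5 in GINS1, and MCM3 and CDC7 each held 2. In resistant monoculture the median log2 ratio of S over G1 was 1.61 over the 19 genes with an E2F string and 1.20 over the 17 without. Among genes outside the lists that set the phase, described below, it was 1.32 over 11 with the string and 0.72 over 13 without, a description with no test.

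The data are UMI counts, which count each captured RNA molecule once, from libraries that read the 3′ end of transcripts. They are given as CPM, UMIs per 1000000 UMIs of genes with a symbol, so a level can be compared between populations for a gene but not between genes. The authors had assigned each annotated cell to a lineage and to G1, S or G2M, which gave 4 populations: 3329 sensitive cells in monoculture, 2059 sensitive cells in coculture, 6292 resistant cells in coculture and 7557 resistant cells in monoculture. Summed UMIs ran from 70896822 to 270891547 per population. Of the annotated barcodes, 8, 7 and 17 were shared between pairs of libraries. The luminal markers KRT8, KRT18, KRT19, GATA3, EPCAM and ESR1 were present in every population, whereas the leukocyte gene PTPRC had at most 2 UMIs and the fibroblast gene COL1A2 at most 5. The sensitive monoculture stood apart in 2 ways that accompany the results below: 89.0% of its cells were in G1, against 49.7% to 55.3% in the other populations, and its median mitochondrial share was 20.9%, against 15.2% to 17.3%. The part of the mitochondrial share in the results was not tested.

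The phase itself was not independent of these genes. The deposited phases came from Seurat scores, and the version of its gene lists is not given in the sources used here, so a gene in either version was counted as used. Of the 42 genes, 16 are in these S and G2M lists (MCM2, MCM4, MCM5, MCM6, MCM7, CDC6, GMNN, GINS2, CDC45, PCNA, RFC2, POLA1, PRIM1, POLD3, FEN1 and RPA2) and 26 are not, and the ratios of S over G1 for the 16 are descriptions only.

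Summed over the 42 genes, the level was 951 CPM in sensitive monoculture (945 to 957), 1459 in sensitive coculture (1450.4 to 1468), 1539.5 in resistant coculture and 1560.1 in resistant monoculture. The sensitive monoculture was the low population, and the other populations lay close together. Within a phase the order nearly disappeared. S cells held 2489.9, 2452, 2406 and 2442 CPM in the same order, G2M cells 1722, 1649.7, 1687 and 1689, and G1 cells 764, 912, 945 and 936. Only in G1 was the sensitive monoculture below the others, with an interval of 758 to 769.6 against 902 to 922 in sensitive coculture. Per cell the G1 difference was also seen: after each cell was thinned to 5000 UMIs, the median G1 cell held 3 UMIs of these genes in sensitive monoculture and 4 in each of the other populations, and the median S cell 11 or 12. After this thinning 61.4%, 69.7%, 64.0% and 66% of the S cells held at least 10 of these UMIs, the lowest share being that of sensitive monoculture. Of the G1 cells 1.55%, 3.69%, 3.30% and 3.78% did. Without thinning, S cells held a mean of 93.6, 91.4, 81.3 and 93.0 of these UMIs.

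**Figure D1:**
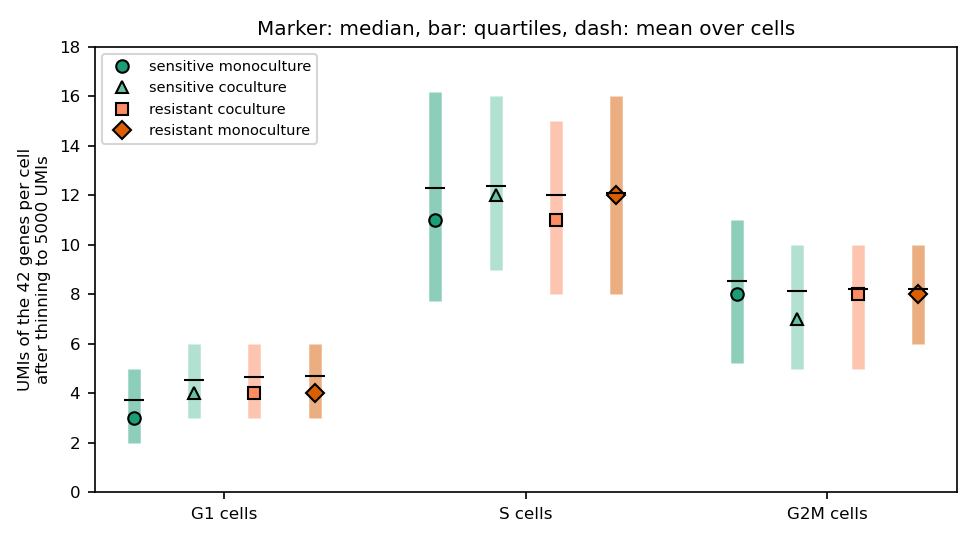
UMIs of the 42 genes per cell after thinning to 5000 UMIs (y axis) in G1, S and G2M cells of the 4 populations (1 library per condition), with markers at the median, bars from the lower to the upper quartile and dashes at the mean. The median is 3 to 4 in G1, 11 to 12 in S and 7 to 8 in G2M, and the sensitive monoculture is lower in G1 cells.

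The comparison of sensitive cells in coculture and in monoculture shows how the sensitive lineage differed under the drug with and without resistant cells. Each side was 1 library, so the culture cannot be told apart from the library. Over all cells 40 of the 42 genes were higher in coculture and 25 (59.5%) were more than 1.5-fold higher, against a background of 5.13% of the 12326 genes with at least 50 UMIs. The median log2 ratio was 0.62, against -0.05 over all genes. It was 0.39 with a pseudocount of 10 CPM, 0.85 as UMIs per cell and 0.08 as a difference of log-normalized means. The largest ratios were those of MCM10 (1.67, 1.53 to 1.80), CDT1 (1.33, 1.22 to 1.43) and GINS2 (1.21, 1.13 to 1.29), and the smallest those of ORC4 (-0.08, -0.17 to 0.01), MCM4 (-0.03, -0.13 to 0.07) and ORC5 (0.02, -0.09 to 0.13). The levels behind these ratios follow by role. Wherever 4 values are given, the first pair is sensitive cells in monoculture and then in coculture, and the second pair is resistant cells in coculture and then in monoculture.

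The origin recognition complex is the platform on which helicases are loaded, and ORC1 is its subunit that is known to be made and destroyed with the cycle. ORC1 stood at 0.707, 1.68, 1.98 and 2.0 CPM, on 68, 119, 395 and 541 UMIs. ORC6, the smallest subunit, was at 38.7, 57.3, 53.8 and 57.1 CPM. These were the subunits for which the sensitive monoculture was clearly the lowest. For the core subunits ORC2 (12.0, 14.5, 16.0 and 12.7 CPM) and ORC3 (9.44, 11.4, 12.2 and 10.6 CPM) the cocultured cells of both lineages were the higher ones. ORC4 (22.4, 21.1, 20.9 and 19.5 CPM) and ORC5 (14.8, 15.1, 13.8 and 11.1 CPM) were lowest in resistant monoculture. The complex therefore moved little as a group, from 98 to 121 CPM summed in sensitive cells, and its median log2 ratio was 0.25.

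The loaders moved more. CDC6, the ATPase that joins ORC to CDT1, was at 14.4, 26.6, 26.8 and 27.5 CPM. CDT1 (chr16:88870197-88875666, GRCh37), which brings MCM2-7 to the origin, was at 9.16, 24.5, 27.0 and 33.4 CPM. Geminin (GMNN), its inhibitor, was at 23.8, 49.1, 45.6 and 45.4 CPM. Loader and inhibitor thus stood low together in sensitive monoculture, and summed over the 3 genes the level in sensitive cells was 47.4 CPM in monoculture and 100.2 in coculture.

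Of the 6 subunits of the helicase ring, 5 were more than 1.5-fold higher in cocultured sensitive cells. MCM2 was at 7.27, 11.9, 12.4 and 12.8 CPM, MCM3 at 69.3, 105, 106 and 109.7, and MCM5 at 18, 36.0, 34.0 and 33.7. MCM6 was at 14.0, 25.1, 28.1 and 27.8 CPM, and MCM7 at 33.9, 61.6, 69.8 and 73.4. MCM4 was the exception, at 17.4, 17.0, 19.1 and 19.6 CPM, so the 6 messages of a complex that holds its subunits in equal number did not change in equal measure.

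Among the factors that activate the helicase, 7 of 8 were more than 1.5-fold higher. CDC45, the partner of the ring, was at 7.30, 14.5, 12.9 and 15.9 CPM. The GINS subunits were at 8.10, 13.4, 14.7 and 14.1 CPM (GINS1), 19.0, 45.3, 48.8 and 61.2 (GINS2), 3.01, 4.50, 3.47 and 3.57 (GINS3) and 14.2, 25.7, 29.4 and 29.1 (GINS4). MCM10 (chr10:13203558-13253110, GRCh37), which is needed for the assembled helicase to start unwinding, was at 4.64, 16.9, 18.8 and 18.1 CPM, and a UMI of it was found in 7.96%, 30.2%, 31.8% and 33.3% of cells. The kinase CDC7 was at 1.37, 2.79, 2.73 and 2.75 CPM and its activator DBF4 at 38.6, 64.6, 60.5 and 49.2. GINS3 was the gene of this group below 1.5-fold in sensitive cells, and the population with its highest level was sensitive coculture.

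Of the polymerases and primase 5 of 8 were more than 1.5-fold higher, with a median log2 ratio of 0.67. POLA1, the catalytic subunit of polymerase alpha, was at 4.65, 6.56, 7.10 and 6.29 CPM, its partner POLA2 at 14.1, 24.4, 24.4 and 27.1, and the primase PRIM1 at 10.1, 18.2, 19.2 and 20.9. In polymerase delta, which copies the lagging strand, POLD1 was at 7.21, 11.4, 8.99 and 9.83 CPM, POLD2 at 97.0, 112, 111 and 132, and POLD3 at 47.1, 94.2, 104 and 90.7. In polymerase epsilon, which copies the leading strand, POLE was at 6.97, 9.27, 10.3 and 10.8 CPM and POLE2 at 4.30, 8.60, 7.81 and 6.74. Subunits of the same polymerase differed: in sensitive cells the log2 ratio of coculture over monoculture was 0.21 for POLD2 and 0.98 for POLD3, with intervals of 0.17 to 0.25 and 0.93 to 1.04.

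The clamp PCNA, the ring that tethers polymerases to DNA, was at 45.1, 63.2, 74.2 and 89.7 CPM. Of the clamp loader, RFC1, the large subunit, was at 39.1, 48.9, 58.1 and 51.2 CPM. RFC2 was at 33.0, 44.6, 41.9 and 48.3 CPM, RFC3 at 26.7, 55.8, 59.5 and 38.4, RFC4 at 21.2, 26.1, 31.1 and 43.1, and RFC5 at 3.74, 5.66, 5.93 and 7.26. PCNA, RFC4 and RFC5 were highest in resistant monoculture, whereas RFC3 was higher in both cocultured populations than in either monoculture. FEN1, the nuclease that removes flaps from Okazaki fragments, was at 12.4, 19.6, 18.1 and 21.1 CPM and the ligase LIG1 at 11.2, 17.8, 22.8 and 22.9. Of RPA, which coats single-stranded DNA, RPA1 was at 18.8, 23.7, 20.2 and 18 CPM, RPA2 at 40.4, 42.2, 31.1 and 31.0, and RPA3 at 107, 161, 204 and 195. RPA2 was higher in both sensitive populations and RPA3 in both resistant ones.

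**Figure D2:**
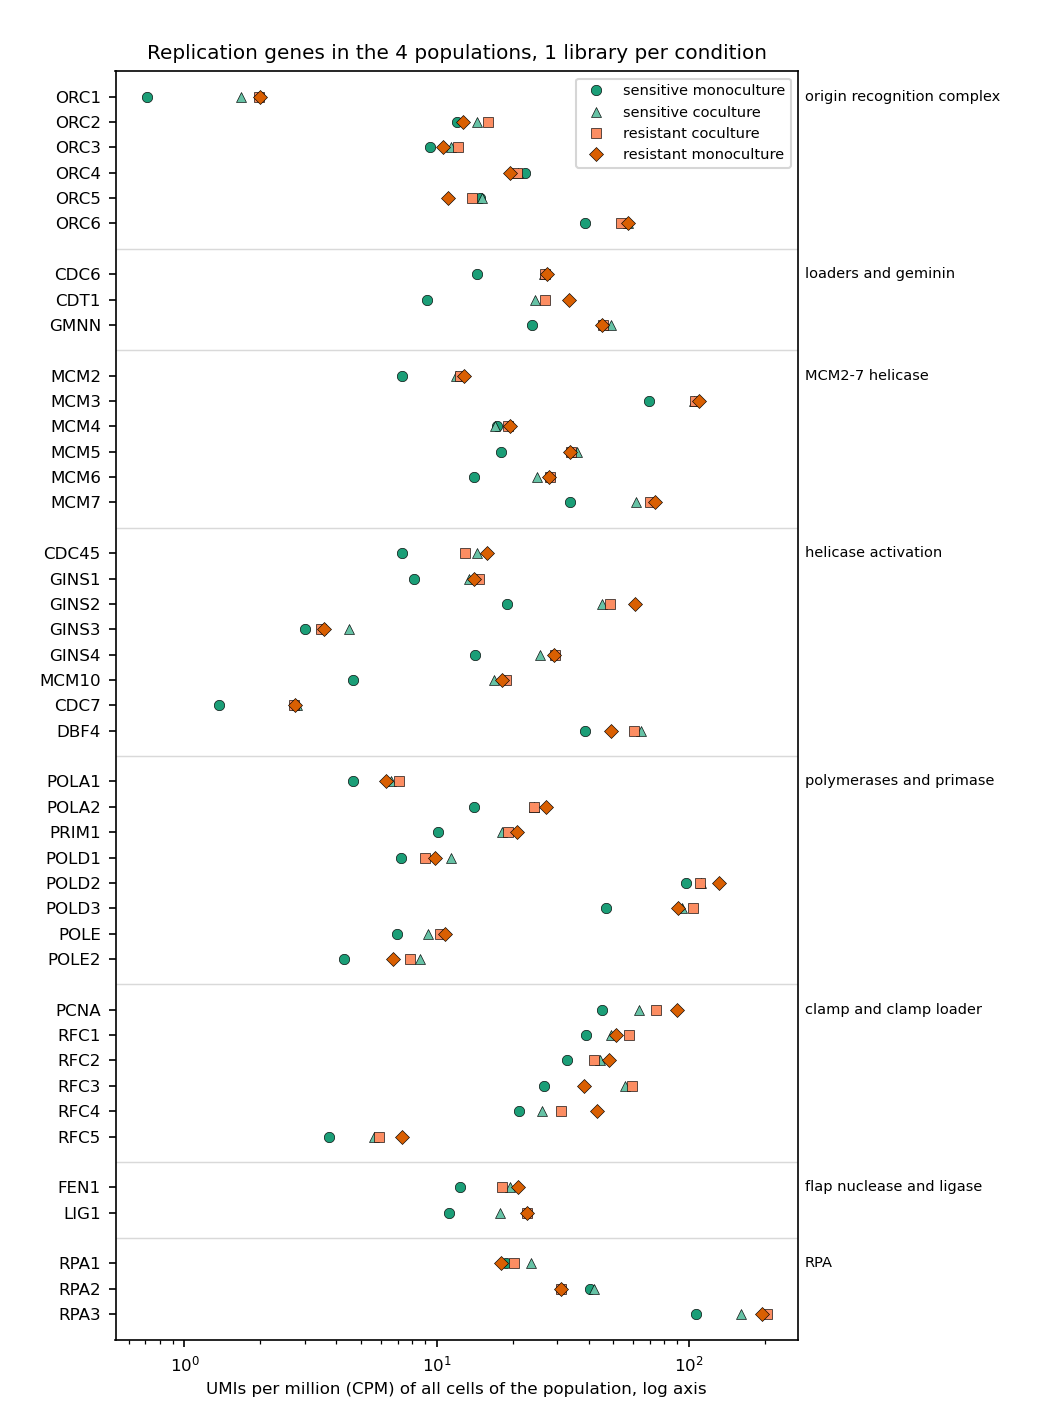
Level of each of the 42 genes (CPM, log axis) over all cells of the 4 populations, 1 marker per population and 1 library per condition, grouped by role. The circle of sensitive monoculture lies left of the other markers for most genes, as for MCM10 and CDT1, and not for ORC4, ORC5 or RPA2.

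The phases were then compared separately, since a population with more S cells holds more of these messages even if its S cells do not. In S cells of the sensitive lineage the median log2 ratio of coculture over monoculture was -0.03, with 17 genes higher and 25 lower. Only POLE2 was more than 1.5-fold higher (0.65, 0.26 to 1.05, from 8.32 to 13.6 CPM). That is 2.38% of the 42 genes, near the background of 3.46% of genes. RFC3 (0.56) and POLA1 (0.29) came next, and PCNA (-0.49, from 203 to 144 CPM), RFC4 (-0.46, from 60.8 to 43.8 CPM) and CDC45 (-0.27) were at the other end. The 176 S cells of the sensitive monoculture thus held about as many CPM of these messages as the 458 S cells of the coculture. Over the 26 genes outside the lists that set the phase, the median in S cells was also -0.03. In G2M cells the median was 0.00. In G2M cells 2 of 41 genes (4.88%) were more than 1.5-fold lower, MCM4 (-0.62) and PCNA (-0.60). That is near the background of 4.33% of genes. RFC3 (0.53), POLD3 (0.42) and MCM5 (0.40) were the highest there, and FEN1 (-0.43) was the third lowest.

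G1 cells differed. Of 41 genes with enough UMIs (ORC1 had 25 and 17 UMIs and was not counted), 31 were higher in coculture and 5 were more than 1.5-fold higher, which is 12.2% against a background of 3.81%, and the median log2 ratio was 0.25 against -0.07 over all genes. The median mitochondrial share of these G1 cells was 21.2% in monoculture and 19.2% in coculture. The 5 genes were MCM10 (1.14, 0.88 to 1.39), CDT1 (0.86), RFC3 (0.83), GINS4 (0.71) and GINS2 (0.66). MCM10 in G1 cells stood at 0.919, 3.23, 3.73 and 3.27 CPM in the 4 populations, CDT1 at 5.10, 10.0, 11.6 and 13.2, and GINS2 at 9.66, 15.9, 17.8 and 23.2. In each case the sensitive monoculture was well below the others. The lowest ratios in G1 were those of MCM4 (-0.38, from 15.4 to 11.6 CPM), PCNA (-0.23, from 27.6 to 23.4 CPM) and RPA2 (-0.18, from 36.9 to 32.5 CPM). The ratio of RPA2 changed sign when taken as UMIs per cell. The G1 median depended on which cells counted as G1: with only those whose deposited S and G2M scores were both below -0.05, a limit set after the data were seen, it was 0.07, and the summed level was 715 CPM in monoculture and 779 in coculture. In these stricter G1 cells MCM10 was at 0.546 and 1.68 CPM, CDT1 at 4.35 and 6.91, GINS2 at 7.82 and 11.6, GINS4 at 9.52 and 14.6 and RFC3 at 21.9 and 36.0, and the log2 ratios were 0.80 for MCM10, 0.69 for RFC3, 0.57 for GINS4, 0.56 for CDT1 and 0.51 for GINS2. On CPM + 1 only MCM10 and RFC3 were still past 1.5-fold in these cells. The share of all genes past that fold was not computed for these stricter cells, so their count has no background. The 12.2% against 3.81% holds for the deposited G1 cells only. CDT1, GINS4 and GINS2 fell short of that fold, with intervals of 0.32 to 0.81, 0.39 to 0.75 and 0.31 to 0.71. Adding 1 CPM draws the ratios of genes at such low levels toward 0. With 10% of resistant-cell RNA taken out of the cocultured sensitive profile the G1 median was 0.08. The 10% is a setting and not a measured share. FABP7 was at 1398 and 289 CPM in sensitive cells in monoculture and coculture, at 14.4 in resistant cells in coculture and at 0.808 in resistant monoculture. Why it was higher in resistant barcodes of the coculture was not tested, and it gives no measure of resistant-cell RNA in sensitive barcodes.

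**Figure D3:**
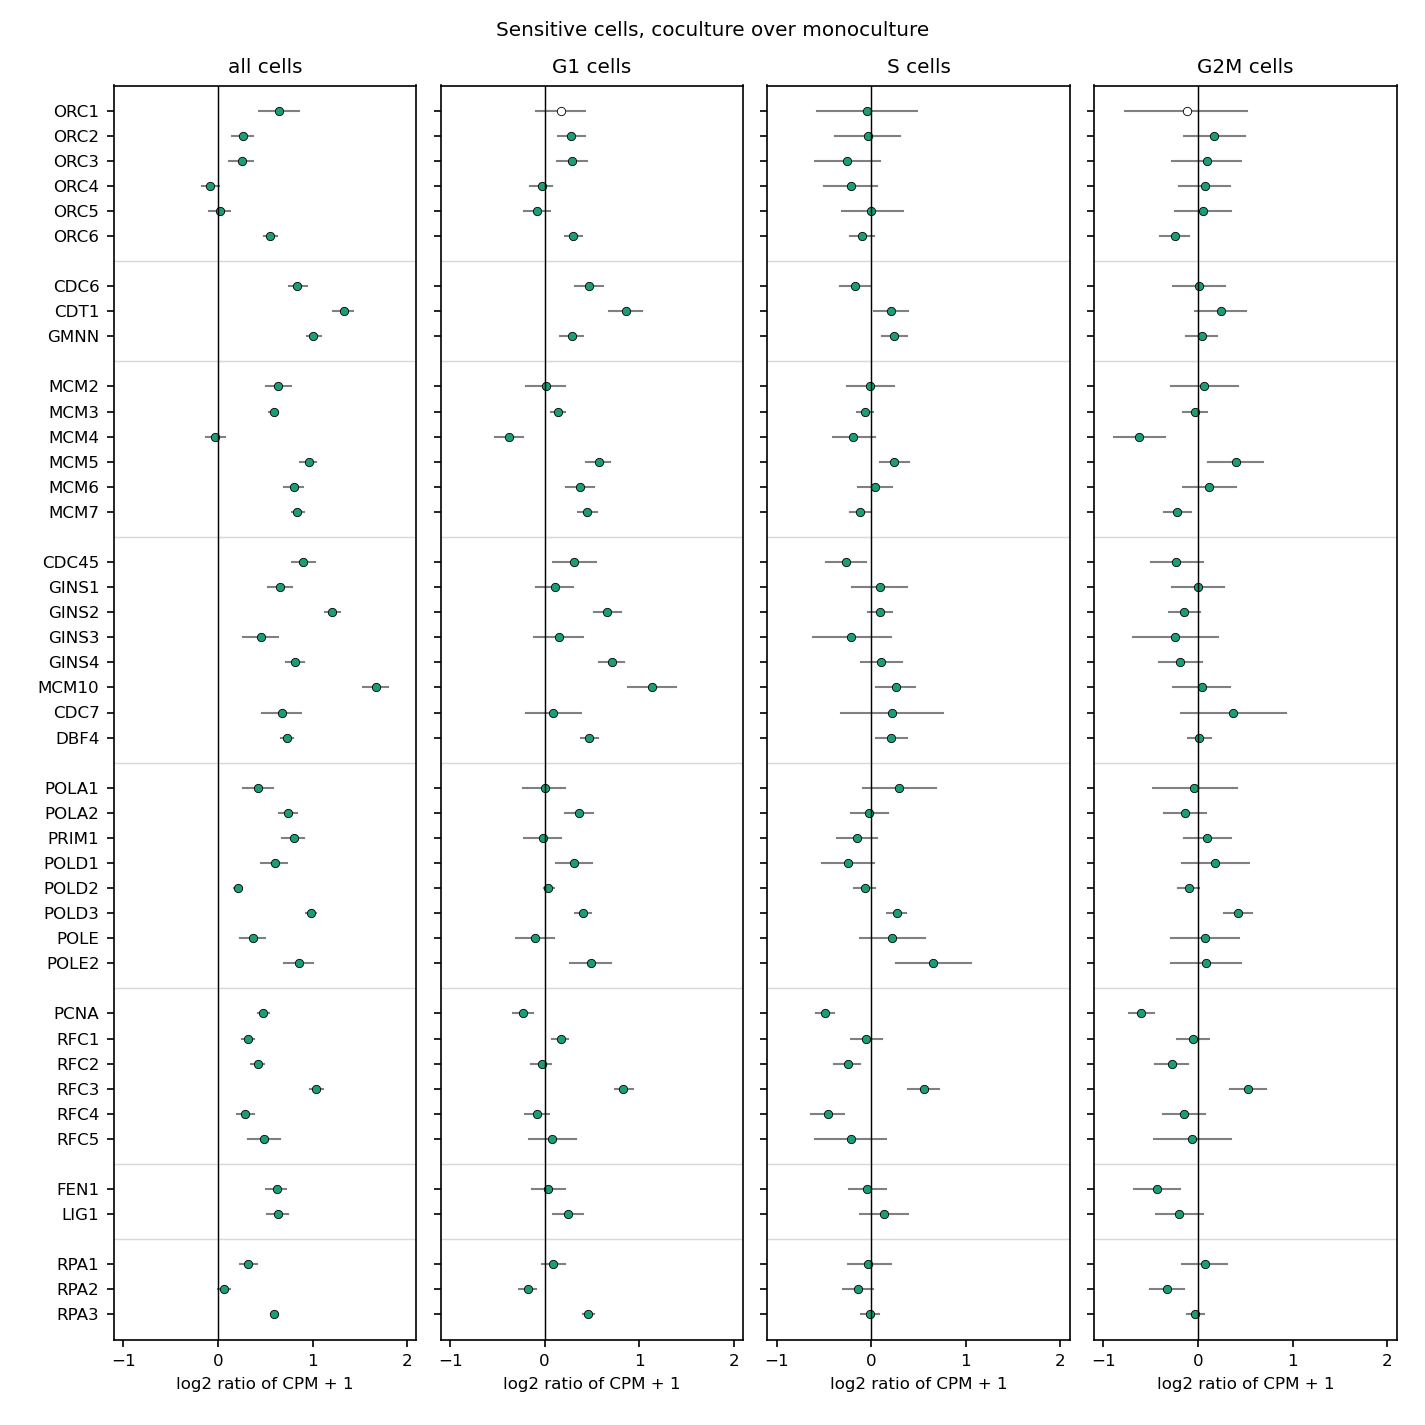
Log2 ratio of CPM + 1, coculture over monoculture, of the 42 genes in all, G1, S and G2M sensitive cells, with counting intervals as lines and open circles where fewer than 50 UMIs were at hand (1 library per condition). The median is 0.62 over all cells, 0.25 in G1, -0.03 in S and 0.00 in G2M.

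The share of the all-cell difference that phase composition accounts for arithmetically was computed by giving each phase of the monoculture the share of UMIs it had in the coculture. The summed level went from 951 to 1409 CPM, 90% of the way to the observed 1459. For the 26 genes outside the lists that set the phase it went from 603 to 825 CPM, 79.2% of the way to 884. By role this was 96.1% for the origin recognition complex, 95% for MCM2-7, 80.2% for helicase activation, 82.7% for RPA, 77.6% for the loaders and geminin and 77.3% for the polymerases, whereas the clamp with its loader (121%) and the flap nuclease with the ligase (110.2%) overshot. The lowest shares among genes that differed by more than 20% were those of RFC3 (29.1%), ORC2 (31.0%) and POLE2 (45.1%), whereas for PCNA (237%) and RFC4 (209.7%) the reweighted level overshot the observed one. Since 16 of the 42 genes set the phase, phases were also assigned anew with no member gene in the lists. S cells then made up 3.18% of sensitive cells in monoculture and 14.3% in coculture, and the median ratio in G1 was 0.24. With these phases, a setting added after the data were seen, the reweighted sum was 1378 CPM, 84% of the way, and for the 26 genes it was 810.1, 73.8% of the way. The summed G1 level was then 783 CPM in monoculture and 981 in coculture.

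In CPM the resistant lineage gave no such shift between coculture and monoculture, whereas as UMIs per cell its median log2 ratio was -0.17. In CPM the median was -0.01, with 19 genes higher and 23 lower. RFC3 alone was more than 1.5-fold higher (0.62, 0.58 to 0.65), against a background of 0.661% of 13155 genes. RFC3 lies at chr13:34392206-34540695 and RFC4 at chr3:186507669-186524847 (GRCh37). ORC2 (0.30), DBF4 (0.29) and ORC5 (0.29) followed. The lowest were RFC4 (-0.46, -0.50 to -0.41), GINS2 (-0.32) and CDT1 (-0.30), and CDC45 (-0.29) and PCNA (-0.27) were next. In G1 cells RFC3 was again the sole gene past 1.5-fold (0.60), against 0.817% of genes, and the median was 0.01. ORC2 (0.33) and ORC5 (0.32) came next in G1, with RFC4 (-0.41), GINS2 (-0.36) and PCNA (-0.27) at the other end. Over all cells 15 of the 42 genes had a counting interval above 0 in sensitive and below 0 in resistant cells, against 8.0% of 12244 genes, and the difference between the lineages was not tested. In sensitive cells alone 38 of the 42 had an interval above 0. In resistant cells alone 15 of the 42 had one below 0, against 3573 of 13155 genes. RFC3 was higher in coculture in every phase of both lineages: G1 cells held 23.2, 42.1, 45.1 and 29.5 CPM in the 4 populations, S cells 55.8, 82.6, 78.2 and 50.7, and G2M cells 40.4, 58.8, 65.5 and 40.8. RFC4, a partner of RFC3 in the same loader, went the other way in resistant cells, from 27.3 to 20.4 CPM in G1, from 66 to 47.6 in S and from 45.4 to 32.8 in G2M. Both cocultured populations came from 1 library, so what belongs to coculture and what belongs to that library cannot be told apart.

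**Figure D4:**
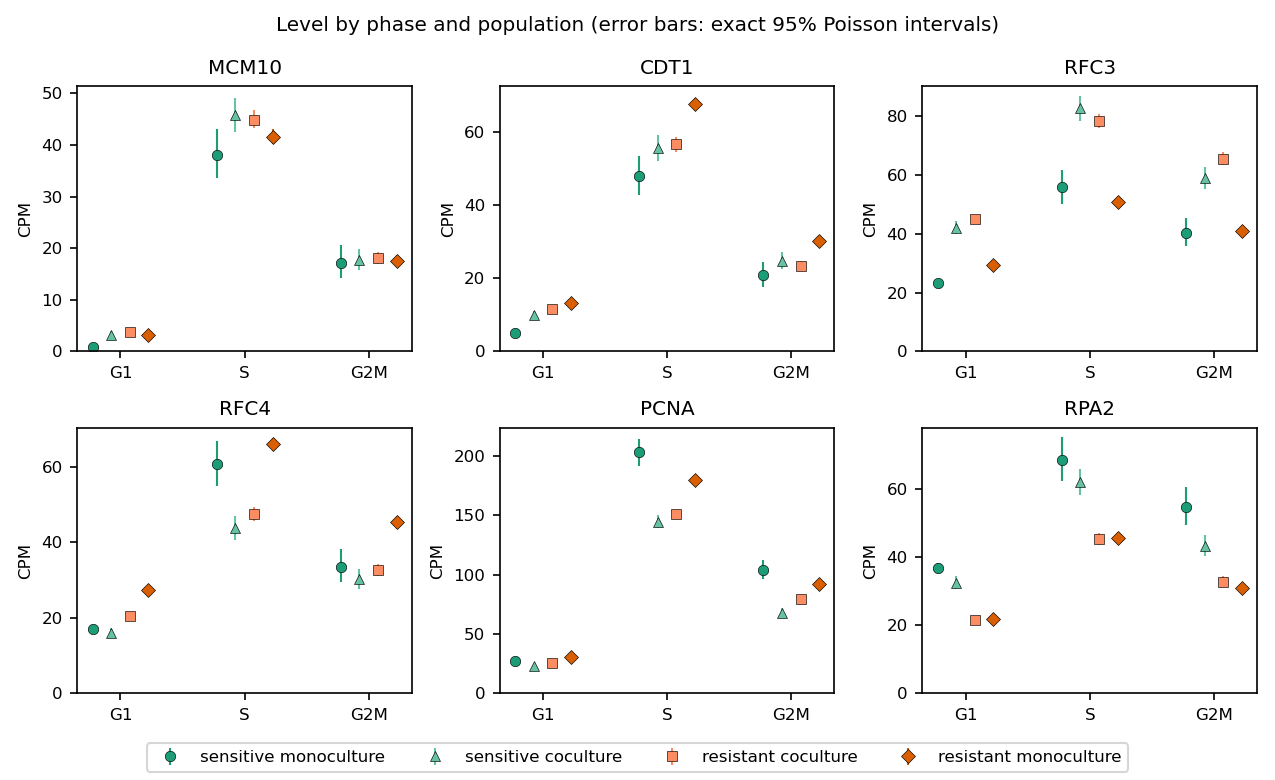
Level (CPM) of MCM10, CDT1, RFC3, RFC4, PCNA and RPA2 in G1, S and G2M cells of the 4 populations, with exact Poisson intervals as error bars (1 library per condition). RFC3 is higher in both cocultured populations in each phase, RPA2 is higher in both sensitive populations, and MCM10 and CDT1 are lowest in G1 cells of the sensitive monoculture.

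The monocultures were compared to see how the lineages differ when each grows alone under the drug. Over all cells 38 of the 42 genes were higher in resistant cells and 24 were more than 1.5-fold higher, against 6.65% of 12968 genes, and the median log2 ratio was 0.72. MCM10 and CDT1 (both 1.76) and GINS2 (1.63) were highest, and ORC5 (-0.38), RPA2 (-0.37) and ORC4 (-0.19) lowest. The sensitive monoculture is the same library as in the comparison above, so these ratios are not independent of it. In G1 cells the median was 0.17 against -0.11 over all genes, and it depended on the scaling and the phases: 0.44 as UMIs per cell, 0.28 with TMM factors, 0.29 with phases assigned without these genes and 0.02 as a difference of log-normalized means. There, 7 genes were more than 1.5-fold higher, against 5.55% of genes: CDT1 (1.22, 1.09 to 1.36), GINS2 (1.18), MCM10 (1.15), GINS4 (0.92), RPA3 (0.73), RFC4 (0.65) and MCM7 (0.64). RPA2 was the only gene more than 1.5-fold lower in G1 (-0.73, from 36.9 to 21.8 CPM), against 13.2% of genes, with ORC5 (-0.44) and RPA1 (-0.23) next. As UMIs per cell the ratio of RPA1 changed sign. In S cells the median was -0.06, with CDT1 highest (0.49, from 47.8 to 67.4 CPM), followed by LIG1 (0.42) and GINS2 (0.31). GINS3 was lowest (-0.67, from 8.77 to 5.15 CPM), the sole gene more than 1.5-fold lower, against 10.2% of genes, followed by RPA2 (-0.58) and POLD1 (-0.53). In G2M cells RPA2 was again the lowest (-0.81), before MCM4 (-0.54) and FEN1 (-0.49), and CDT1 (0.51), RFC4 (0.42) and CDC7 (0.30) were the highest.

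Within the coculture both lineages came from the same spheroids and the same library. There, none of the 42 genes was more than 1.5-fold apart on CPM + 1 in any phase. Few of all genes were: 2.50% were higher and 4.67% lower in resistant cells in G1, 2.72% and 4.47% in S, and 3.19% and 3.84% in G2M, so the count of 0 is near the background. The median of the 42 genes in G1 was 0.04. RPA2 was lowest over all cells (-0.43) and in G1 (-0.56), with -0.45 in S and -0.39 in G2M. POLD1 (-0.31) and GINS3 (-0.30) came after it over all cells, and LIG1 and RPA3 (both 0.34) with RFC1 and RFC4 (both 0.24) were highest. In G1 the next lowest were GINS3 and POLE2 (both -0.25), and the highest RFC4 (0.33), POLE (0.32) and RPA3 (0.28). In S the lowest were GINS3 (-0.51) and POLD1 (-0.50), before RPA2, and the highest LIG1 (0.31), RPA3 (0.29) and ORC3 (0.26). In G2M they were POLD1 (-0.45), RPA2 and RPA1 (-0.30) at the low end and RPA3 (0.35), LIG1 (0.28) and POLA1 (0.23) at the high end. The subunits of RPA, a complex of 3 proteins, therefore differed between the lineages in opposite directions within the coculture as well as between monocultures: in S cells RPA3 stood at 189, 187, 229.7 and 218 CPM and RPA2 at 68.6, 62.1, 45.3 and 45.6.

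The S and G1 levels per population show how strongly each message follows the cycle. For the 26 genes outside the lists that set the phase, the median log2 ratio of S over G1 was 1.35, 1.23, 0.95 and 1.09, against -0.03 to 0.01 over all genes. In sensitive and resistant monoculture it was 0.75 and 0.57 with a pseudocount of 10 CPM, and 0.19 and 0.17 as a difference of log-normalized means. More than 1.5-fold higher in S were 23, 21, 19 and 19 of the 26, against 7.00%, 5.69%, 4.68% and 4.74% of genes. MCM10 had the largest ratio in each population (4.35, 3.46, 3.28 and 3.32). In S cells it stood at 38.1, 45.7, 44.9 and 41.6 CPM, and so the larger ratio in sensitive monoculture went with its low G1 level. CDT1 was second in each population (3.0, 2.35, 2.19 and 2.26), in S cells at 47.8, 55.4, 56.5 and 67.4 CPM. ORC1 (2.09, 1.87, 1.65 and 1.5), MCM3 (1.98, 1.78, 1.68 and 1.75) and POLA2 (1.93, 1.55, 1.46 and 1.61) were also high. The lowest in resistant monoculture were ORC4 (-0.11, -0.30, -0.11 and -0.08), ORC5 (0.05, 0.13, 0.07 and 0.10) and ORC2 (0.24, -0.09, 0.02 and 0.14), and so these subunits of the origin recognition complex were nearly level between G1 and S. ORC3 (0.60, 0.05, 0.36 and 0.26) was more than 1.5-fold higher in S in sensitive monoculture only, and ORC6 (1.66, 1.26, 1.15 and 1.20) in every population. With phases assigned without any of the 42 genes, the medians of these genes, 25 with enough UMIs in sensitive monoculture and 26 elsewhere, were 1.48, 1.22, 0.99 and 1.18, and those of the 16 genes of the lists 2.42, 1.95, 1.87 and 1.86.

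**Figure D5:**
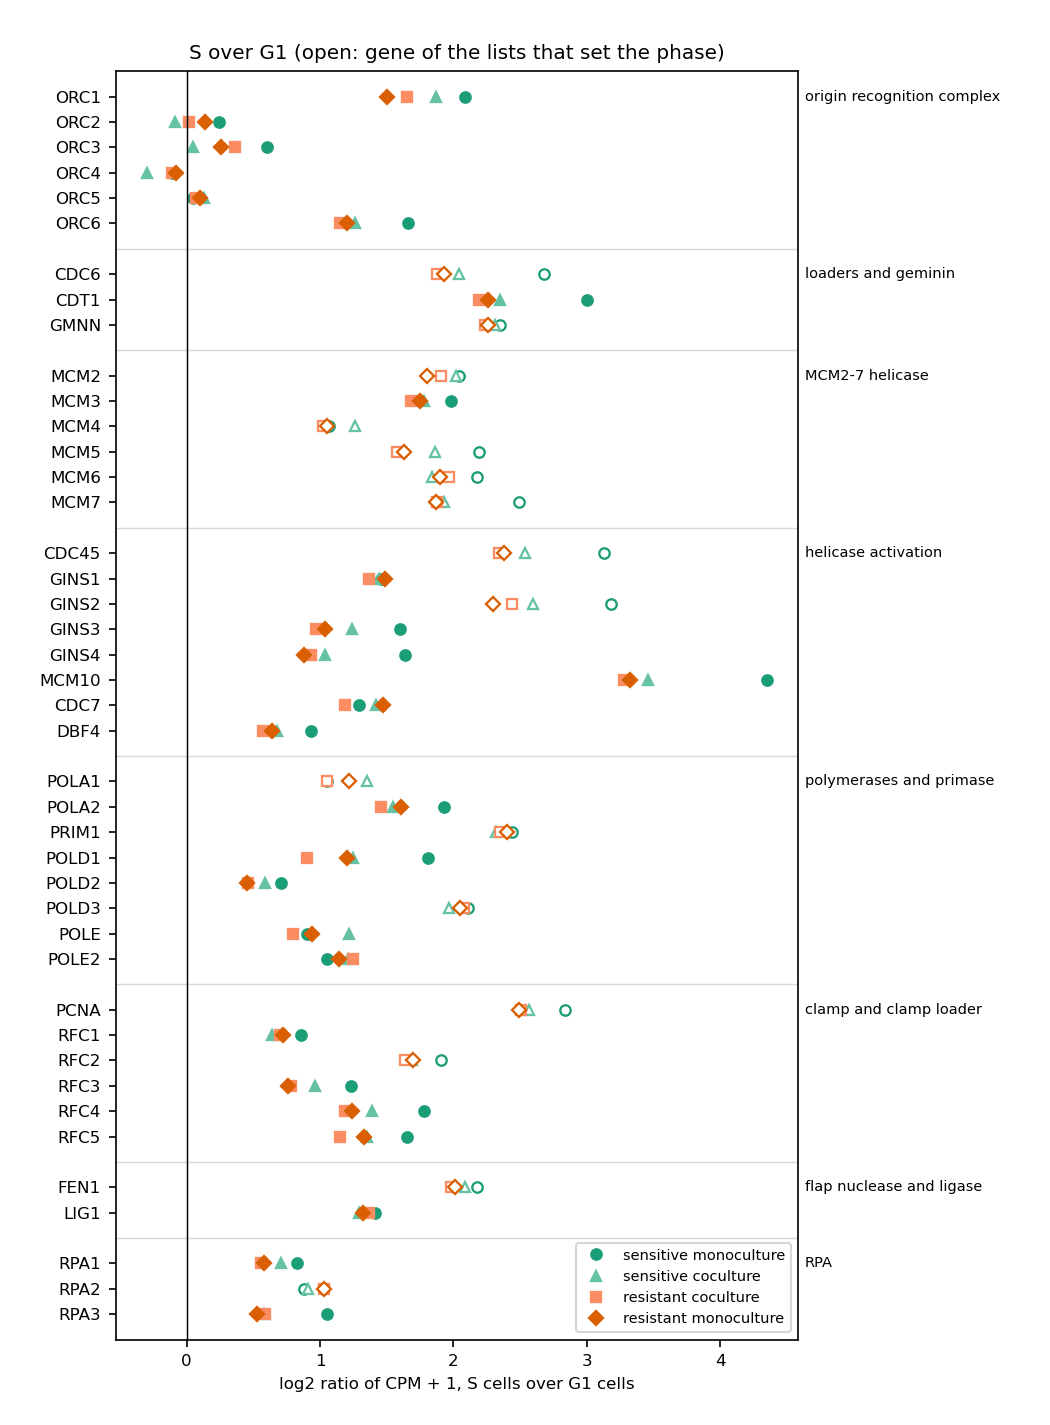
Log2 ratio of CPM + 1 of S over G1 cells for the 42 genes in the 4 populations (1 library per condition), with open markers for the 16 genes of the lists that set the phase. MCM10 is farthest to the right in each population, and ORC2, ORC4 and ORC5 lie near 0.

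For the genes of the lists the values are descriptions. They are CPM of the summed UMIs of a phase, not UMIs per cell. MCM2 stood at 25.6, 25.4, 25.6 and 24.4 CPM in S and at 5.44, 5.48, 6.07 and 6.29 in G1, nearly the same in every population. MCM6 was at 51.3, 52.7, 56.9 and 53.9 CPM in S and 10.6, 14.0, 13.8 and 13.7 in G1, and MCM4 at 33.4, 29.2, 29.7 and 30 in S and 15.4, 11.6, 14.2 and 14.0 in G1. CDC6 was at 67.3, 59.8, 55.0 and 54.9 CPM in S and 9.65, 13.8, 14.2 and 13.7 in G1. So in the sensitive monoculture CDC6 was highest in S and lowest in G1. Geminin was at 85.4, 101, 83.5 and 81.8 CPM in S and 15.9, 19.6, 16.9 and 16.3 in G1. CDC45 was at 39.2, 32.2, 25 and 31.1 CPM in S and 3.58, 4.69, 4.13 and 5.14 in G1, and PCNA at 203, 144, 151 and 179.6 in S and 27.6, 23.4, 25.6 and 31.1 in G1. PCNA was thus lower in the coculture than in the monoculture of each lineage in both phases. POLA1 was at 9.52, 11.9, 10.6 and 10.0 CPM in S and 4.09, 4.07, 4.58 and 3.73 in G1, and FEN1 at 42.6, 41.2, 35.0 and 40.4 in S and 8.62, 8.90, 8.14 and 9.28 in G1. Both were above their G1 level in S cells of every population.

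Outside the lists, ORC1 stood at 4.54, 4.33, 4.31 and 4.11 CPM in S and 0.302, 0.461, 0.689 and 0.808 in G1, on few UMIs. ORC6 was at 99.9, 93.0, 81.9 and 87.8 CPM in S and 30.9, 38.3, 36.4 and 37.6 in G1, so that sensitive monoculture was again the highest in S and the lowest in G1. RFC4 was at 60.8, 43.8, 47.6 and 66 CPM in S and 17.0, 16.1, 20.4 and 27.3 in G1, lower in S cells of both cocultured populations. POLE2 was at 8.32, 13.6, 11.6 and 10.1 CPM in S and 3.49, 5.29, 4.29 and 4.03 in G1, and here the cocultured cells were the higher ones. LIG1 was at 24.8, 27.2, 34.0 and 33.5 CPM in S and 8.69, 10.5, 12.6 and 12.8 in G1, and RPA3 in G1 at 90.6, 125, 152 and 151, both higher in resistant cells.

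G2M cells mostly lay between. MCM10 was at 17.2, 17.7, 18.1 and 17.5 CPM there, nearly level across populations, and CDT1 at 20.9, 24.7, 23.4 and 30.1. MCM2 was at 11.7, 12.3, 9.94 and 11.0 CPM, MCM4 at 25.8, 16.4, 16.7 and 17.4 and MCM6 at 19.8, 21.6, 23.1 and 22.5. MCM4 was highest in sensitive monoculture, as was MCM7 at 81.8, 70.2, 70.7 and 75.7, whereas MCM5 was lowest there. CDC6 was at 21.0, 21.2, 19.3 and 19.3 CPM, geminin at 59.1, 60.7, 56.9 and 58.0, and CDC45 at 21.4, 18.2, 15.8 and 18.4. ORC1 was at 1.88, 1.65, 1.82 and 1.65 CPM and ORC6 at 74.1, 62.4, 55.3 and 56.6. PCNA was at 104, 68.1, 79.8 and 92.2 CPM, RFC4 at 33.6, 30.2, 32.8 and 45.4, and FEN1 at 28.8, 21.1, 17.9 and 20.3. For PCNA the order was that of S cells, with both monocultures above both cocultured populations. POLA1 was at 6.81, 6.61, 7.91 and 6.69 CPM and POLE2 at 10.1, 10.8, 10.1 and 7.98. LIG1 was at 27.8, 24.1, 29.4 and 30.1 CPM and RPA3 at 218, 214, 272 and 257, so RPA3 kept its higher level in resistant cells.

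In G2M cells of resistant monoculture 27 of the 42 genes were more than 1.5-fold above G1, against 5.89% of genes, with a median log2 ratio of 0.74. MCM10 (2.12), PRIM1 (1.93) and GMNN (1.77) were highest and MCM5 (0.05), ORC4 (0.12) and ORC3 (0.15) lowest. MCM5, at 16.9, 22.7, 22.7 and 20.9 CPM in G2M cells, had thus come back near its G1 level. The lists also set S apart from G2M, so the values of their 16 genes are again descriptions. In resistant monoculture 17 genes were more than 1.5-fold higher in S than in G2M, against 0.621% of genes, and 12 of the 17 are genes of the lists. Of the 26 genes outside the lists 5 were, with a median log2 ratio of 0.25, led by MCM10 (1.20), CDT1 (1.14) and MCM3 (1.11). MCM5 (1.58), CDC6 (1.46) and MCM6 (1.22) were highest among the genes of the lists. DBF4, which is outside the lists, was the only gene more than 1.5-fold lower in S than in G2M (-0.69), against 1.58% of genes. With phases assigned without any of the 42 genes, these ratios in resistant monoculture were 1.58 for MCM5, 1.36 for CDC6, 1.16 for MCM10, 1.11 for MCM6, 1.09 for MCM3, 1.05 for CDT1 and -0.64 for DBF4. With the deposited phases, in the other populations MCM5 had ratios of 1.94, 1.79 and 1.5 and DBF4 of -0.74, -0.54 and -0.70. DBF4 stood at 102, 103, 98.2 and 82.9 CPM in G2M, 60.9, 70.8, 60.0 and 50.9 in S and 31.5, 44, 39.9 and 32.4 in G1. Its kinase CDC7, on few UMIs, was at 3.93, 4.74, 4.22 and 4.48 CPM in S, 3.19, 4.43, 3.71 and 4.16 in G2M and 1.02, 1.14, 1.29 and 0.979 in G1, without the excess in G2M over S. RPA3 was also below 0 in each population (-0.21, -0.19, -0.24 and -0.24), as was ORC4 (-0.02, -0.31, -0.21 and -0.20). GINS1, at 18.7, 20, 20.7 and 20.3 CPM in S and 21.1, 21.2, 21.6 and 21.5 in G2M, was level between these phases, unlike GINS2 at 95.4, 102, 101 and 118 in S and 58.2, 52.5, 48.8 and 64.0 in G2M.

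A list of 30 further replication genes, among them fork protection factors, histone chaperones and accessory polymerase subunits, moved in the same direction by less. In sensitive cells 26 of the 30 were higher in coculture and 10 were more than 1.5-fold higher, against 5.13% of all genes in this comparison, with a median log2 ratio of 0.36 against -0.05. The highest were CLSPN, a mediator of the replication checkpoint (1.30, from 11.6 to 30 CPM), and POLE3, a small subunit of polymerase epsilon (0.94, from 47.0 to 91.2 CPM), and the lowest MCM9 (-0.33, from 1.93 to 1.34 CPM) and POLE4 (-0.13, from 71.9 to 65.8 CPM). In G1 cells the median of this list was 0.12, and in S cells it was -0.02. Some of its genes, among them CLSPN, TIPIN and DSCC1, are in the S lists that set the phase. They were not given apart, so these medians within a phase are descriptions only. An E2F string was found in the promoters of 6 of the 24 of these genes with an entry (25%), against 3.99% of all genes with a promoter.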

How the data were processed

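Reads were aligned and UMIs counted by the authors (Cell Ranger 3.0.2, GRCh37, per the labels), and the deposited UMI counts are raw, by gene and cell barcode. A deposited annotation covers the cells that passed the authors' filters, with UMI counts, a mitochondrial percent, S and G2M scores made in Seurat, the phase and the population. A further 11 of its columns were not used. The deposited tables hold 8643, 20227 and 11502 barcodes for sensitive monoculture, coculture and resistant monoculture. Of these, 3329, 8351 and 7557 are annotated, with median UMIs of 27622, 31522 and 35443. Within the authors' limits on genes, UMIs and mitochondrial share lay 3329, 12346 and 7557 barcodes. All of these were thus annotated in the monocultures but only a part in the coculture. The limit of at least 2 UMIs of a fluorescent label, which the paper names, was set in every population as an alternative. In monoculture and coculture it kept 1152 of 2963 and 591 of 1138 sensitive G1 cells. Of the resistant G1 cells it kept 1494 of 3781 and 1825 of 3125. In the sensitive ones the summed level was 749.8 and 922 CPM, against 764 and 912 with all. In the resistant ones it was 971 and 959.8, against 936 and 945. The lineage of the other cells was taken as labelled. What the coculture barcodes left out would have changed was not tested. Rows without a symbol (0.523% to 0.591% of UMIs) were left out.

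UMIs were summed per population and phase and given as CPM. Ratios are log2 of CPM with a pseudocount of 1 CPM, for genes with at least 50 UMIs over both sides, and genes past 1.5-fold are counted. Ratio intervals are exact conditional binomial ones, those of levels exact Poisson, at 95%, and cover counting error only. Cells are not replicates and gave no test. Thinning took 5000 random UMIs of each annotated cell, and no cell was left out. Own phases used 28 S genes and 52 G2M genes, none a member, with up to 100 control genes from 24 expression bins. Doublet scores came from scrublet (scanpy 1.11.5), and 55, 326 and 253 annotated cells were above 0.25. They were kept, and left out as an alternative. TMM factors came from edgeR 4.0.16, with no edgeR test. Python 3.11.15 with scipy 1.17.1 and numpy 2.4.6 did the rest. The ratios and intervals were tested on simulated Poisson counts, with a negligible pseudocount and only genes well above the minimum of 50 UMIs. The ratios with 1 CPM added were not themselves tested. Gene positions are from GENCODE lifted to GRCh37, promoters from RefSeq on GRCh38.p14.

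The genes, groups and lists were chosen with earlier results of these data known. Named in each comparison are at least the 3 highest and 3 lowest genes, and for the further list the 2 highest and 2 lowest. FABP7, and the limit of -0.05 on scores, were chosen after values were seen. The bulk RNA-seq and growth experiments were not analysed here.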

Additional observations from a re-analysis of the deposited data

Results flagged for a closer look

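Between coculture and monoculture over all cells, 15 of the 42 genes were higher in coculture in sensitive cells and lower in resistant cells, with both counting intervals away from 0, against 8.0% of the 12244 genes with enough UMIs in both comparisons. The difference between the lineages was not tested, since there was 1 library per condition. CDT1 had a log2 ratio of 1.33 in sensitive cells and -0.30 in resistant cells, GINS2 of 1.21 and -0.32, CDC45 of 0.90 and -0.29, PCNA of 0.48 and -0.27, and RFC4 of 0.29 and -0.46. MCM3 (0.59 and -0.05), MCM7 (0.84 and -0.07) and ORC6 (0.55 and -0.08) were close to 0 in resistant cells. The others were RFC2 (0.42 and -0.20), RFC5 (0.49 and -0.25), POLA2 (0.74 and -0.14), PRIM1 (0.80 and -0.11), POLD1 (0.60 and -0.12), POLD2 (0.21 and -0.24) and FEN1 (0.62 and -0.22). In S cells RFC4 was lower in the coculture in both lineages (-0.46 in each), whereas CDT1 was at 0.21 in sensitive and -0.25 in resistant cells and GINS2 at 0.09 and -0.23. Within each phase of sensitive cells PCNA, RFC2 and RFC4 had fewer CPM in coculture, although they were higher over all cells. From monoculture to coculture PCNA went from 27.6 to 23.4 CPM in G1, 203 to 144 in S and 104 to 68.1 in G2M. RFC2 went from 25.5 to 24.9, 98.7 to 82.7 and 59.9 to 49.3 CPM.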

How the results depend on the processing

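The 7 medians over the genes were recomputed 75 times under other settings. Of these, 55 stayed between the medians of the genes' interval bounds, which are bounds of single genes and not of the median. A change of sign was counted only where these bounds excluded 0, and none was found. For sensitive S cells (-0.23 to 0.21) and resistant cells (-0.08 to 0.05) they included 0, so none could be counted. The sensitive S median ran from -0.07 to 0.03. Given as mean UMIs per cell, without scaling to CPM, the median of coculture over monoculture was 0.85 in sensitive cells (0.62 in CPM), 0.45 in sensitive G1 cells (0.25) and -0.17 in resistant cells (-0.01), that of the monocultures in G1 was 0.44 (0.17), and that of S over G1 was 1.74 in sensitive (1.35) and 1.23 in resistant monoculture (1.09). As differences of log-normalized means, a scale that understates low genes, the same medians without the resistant coculture one were 0.08, 0.03, 0.02, 0.19 and 0.17. With a pseudocount of 10 CPM they were 0.39 for sensitive cells and 0.75 and 0.57 for S over G1, and with 0.1 CPM the resistant S over G1 was 1.24. TMM factors gave 0.28 and phases called without the 42 genes 0.29 for the monocultures in G1. The sensitive G1 median fell to 0.08 with 10% of resistant-cell RNA of all phases taken out. It fell to 0.07 in the stricter G1 cells, where the resistant S over G1 was 1.30. Of single genes, 308 values stayed, 136 moved and 2 reversed, both per cell: RPA2 in sensitive G1 cells (0.03, against -0.18) and RPA1 in G1 of the monocultures (0.04, against -0.23). The cause of these shifts was not tested. No paired analysis was possible because each condition was 1 library. For the same reason no library could be left out. Genes at a few UMIs per population, such as ORC1 and CDC7, limit what can be read within a phase.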

Other observations

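POLE3, a gene of the further list, had a pattern close to that of RFC3: in sensitive cells it stood at 47.0 CPM in monoculture and 91.2 in coculture, and in resistant cells at 49.8 and 78.5, so both cocultured populations were above both monocultures. Its neighbour in the same polymerase, POLE4, was at 71.9 and 65.8 CPM in sensitive cells and at 48.4 and 52.4 in resistant cells, without that order. Both were named after their values were seen.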
